A study of Drosophila melanogaster with 9 samples.

Results

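Very long chain fatty acid elongases were followed through 3 phases of spermatogenesis in the Drosophila melanogaster testis. The 6 genes named were bond, Baldspot, sit, Elo68alpha, Elo68beta and eloF, and a gene was included when a probe set carried its symbol or a synonym in the array annotation, with the brightest probe set taken over all 9 arrays. Of these 6 genes, 5 had a probe set, 1 each, among 11981 genes with a named probe set. No probe set of Baldspot was named in the annotation, and the gene was not analysed here.

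The study hybridized total RNA of the apical (mitotic), proximal (meiotic) and distal (post-meiotic) testis regions to Affymetrix arrays, with 3 biological replicates per phase. All groups came from males of the same wild-type TEMPE T strain, collected as virgins and aged 6 to 10 days, and 250 to 500 testis dissections freed of seminal vesicles went into a replicate. Each testis gave only 1 region. Apical and distal regions were detached whole, whereas the spermatocytes of the meiotic samples were squeezed from the middle part, so that the phases are enriched cell mixtures that also hold neighbouring stages and somatic cells. In such mixtures a lower signal from fewer cells of a type and one from less RNA per cell cannot be told apart.

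Elongases carry out the first step of fatty acid elongation in the endoplasmic reticulum, the condensation of an activated fatty acid with malonyl-CoA. A reductase, a dehydratase and a second reductase then complete the cycle, and repeated cycles give the very long chains found in sphingolipids, waxes and insect hydrocarbons. In flies, bond is required for cytokinesis of dividing spermatocytes, and elongases also serve the making of pheromones in males and females.

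Marker genes followed the labelled phases in part. The mean log2 intensity over 4 spermatogonial markers (bam, zpg, nanos and vas) was 8.37 to 8.67 on mitotic arrays, 6.23 to 6.40 on meiotic arrays and 5.15 to 5.18 on post-meiotic arrays. The mean over 6 spermatocyte markers was 10.06 to 10.08, 10.51 to 10.66 and 8.56 to 8.77 in the same order of phases, and that over 9 late spermatid markers was 9.62 to 9.75, 10.89 to 10.99 and 10.51 to 10.85. All 4 spermatogonial markers fell at both steps. Of the 6 spermatocyte markers 2 rose (fzo and bol), 1 fell and 3 were not called in meiosis relative to mitosis, and all 6 fell after meiosis. All 9 late spermatid markers rose in meiosis relative to mitosis, but 5 fell and only 1 rose in post-meiosis relative to meiosis, so their mean was highest on the meiotic arrays. Array medians lay between 6.36 and 6.54.

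The elongases showed more than 1 profile. bond and Elo68alpha were highest in meiosis, whereas sit, Elo68beta and eloF were highest, or level with the highest, after meiosis. All values below are log2 intensities after RMA, on which scale a difference of 1 is a doubling of the signal, and a gene was called when its adjusted p in limma was under 0.05, with Benjamini-Hochberg adjustment over 18769 probe sets. Signals of different probe sets are not comparable with each other, so levels were compared only within a gene.

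**Figure D1:**
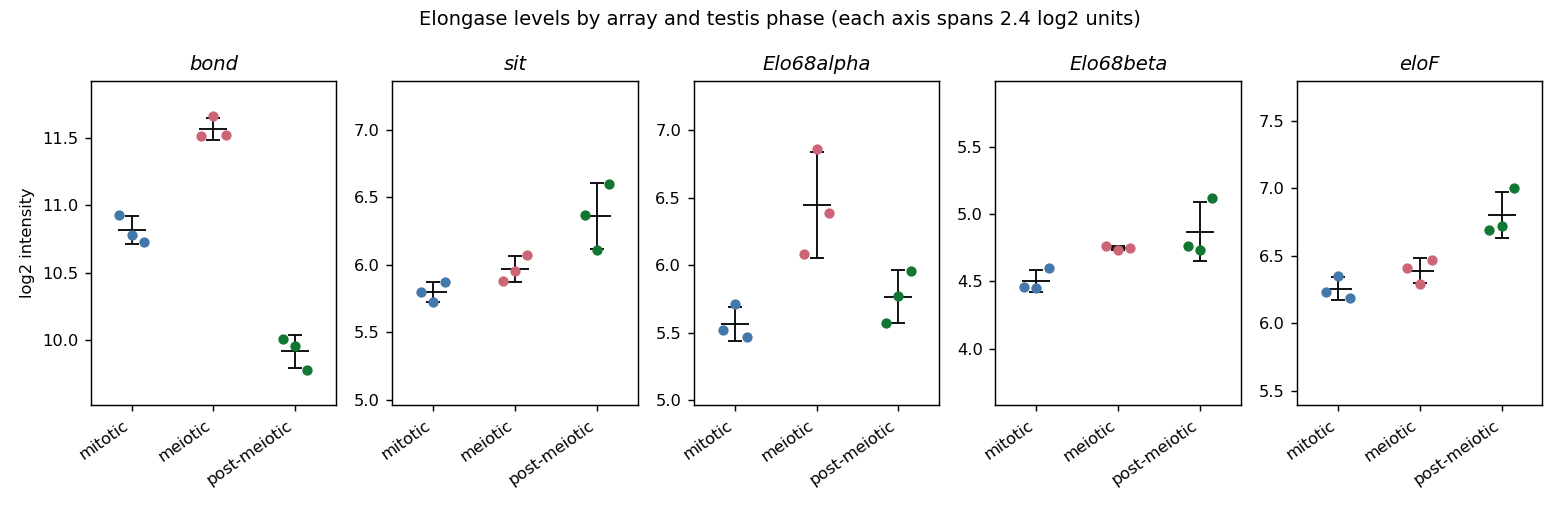
Log2 intensity of each of the 5 elongases (vertical axis) on each array (points), by phase (horizontal axis), with the mean and SD of the 3 arrays in black; every axis spans the same number of log2 units. bond lies between 11.51 and 11.66 on the meiotic arrays, above all mitotic and post-meiotic arrays, while eloF lies between 6.69 and 7.00 on the post-meiotic arrays, above all others.

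bond spanned the widest range of log2 intensity over the 9 arrays among the 5 elongases. Its log2 intensity was 10.93, 10.78 and 10.73 on the mitotic arrays, 11.51, 11.66 and 11.52 on the meiotic arrays, and 10.01, 9.96 and 9.78 on the post-meiotic arrays. No array of any phase overlapped with another phase. The phase means were 10.81 ± 0.11 (mitotic), 11.56 ± 0.08 (meiotic) and 9.91 ± 0.12 (post-meiotic; SD, n = 3 arrays each).

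bond rose by 0.75 in meiosis relative to mitosis (1.68-fold, 95% interval 0.55 to 0.95, limma adjusted p = 1.2e-05). In post-meiosis it fell by 1.65 relative to meiosis (3.13-fold, interval -1.85 to -1.45, limma adjusted p = 3.5e-09). The post-meiotic level was also below the mitotic one, by -0.90 (1.86-fold, interval -1.10 to -0.70, limma adjusted p = 1.1e-06). An exact permutation test of the arrays gave p = 0.1 in each comparison (two-sided), the smallest that 3 arrays against 3 can give. The mean over the spermatocyte markers, given above, was likewise highest on the meiotic arrays and lowest on the post-meiotic arrays, although only fzo (2.17) and bol (1.02) of the 6 rose in meiosis, and the part of these cells in the profile of bond was not tested. The only probe set of bond carries the suffix that Affymetrix gives to sets shared by several transcripts, so its specificity rests on that design.

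Elo68alpha, an elongase of males that has been tied to the synthesis of the pheromone cis-vaccenyl acetate, also peaked in meiosis. It had 5.52, 5.71 and 5.47 on the mitotic arrays, 6.08, 6.86 and 6.39 on the meiotic arrays, and 5.57, 5.77 and 5.96 on the post-meiotic arrays. The 3 meiotic arrays were above all others but spread widely, with an SD of 0.39, while the post-meiotic and mitotic arrays overlapped. Elo68alpha rose by 0.87 in meiosis relative to mitosis (1.83-fold, interval 0.51 to 1.23, limma adjusted p = 5.4e-04) and fell by 0.68 in post-meiosis relative to meiosis (1.60-fold, interval -1.04 to -0.32, limma adjusted p = 0.00307). Between post-meiosis and mitosis the difference was 0.20 (interval -0.16 to 0.56, limma adjusted p = 0.283), and the exact permutation test gave p = 0.2; with cyclic loess between arrays this difference turned to -0.20. The mitotic and post-meiotic signals lay below every array median and carry no detection call, so the folds rest on low signals.

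Of 3 measured ejaculatory bulb markers 1 moved with Elo68alpha and the others did not. Ebp, an ejaculatory bulb protein gene, had 6.16, 5.87 and 5.90 on the mitotic arrays, 6.24, 6.66 and 6.57 on the meiotic arrays, and 5.58, 5.82 and 6.19 on the post-meiotic arrays. It rose by 0.51 in meiosis relative to mitosis (limma adjusted p = 0.0118) and fell by 0.63 in post-meiosis relative to meiosis (limma adjusted p = 0.00273). Like Elo68alpha, it was highest on the second of the 3 meiotic arrays. That was not particular to bulb markers. The spermatocyte marker twe (7.41, 7.98 and 7.44 on the meiotic arrays) and Desat1 (10.42, 11.04 and 10.66) were also highest there. EbpII and EbpIII were not, with 8.46, 8.39 and 8.26 for EbpIII. The mitotic and post-meiotic signals of Ebp also lay below every array median and carry no detection call. EbpII showed no called difference at either step. EbpIII averaged 7.94 on mitotic, 8.37 on meiotic and 11.78 on post-meiotic arrays and rose at both steps, by 3.41 at the second. The part of this tissue in the level of Elo68alpha was not tested. The mean over the 3 bulb markers was 5.94 to 6.37 on mitotic, 6.23 to 6.34 on meiotic and 7.13 to 7.28 on post-meiotic arrays.

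The neighbour of Elo68alpha on chromosome arm 3L, Elo68beta, showed a smaller change. Its values were 4.46, 4.45 and 4.60 on the mitotic arrays, 4.76, 4.73 and 4.75 on the meiotic arrays, and 4.76, 4.73 and 5.12 on the post-meiotic arrays. Every meiotic and post-meiotic array was above every mitotic one, but 2 of the 3 post-meiotic arrays matched the meiotic level and only the third exceeded it. The difference between meiosis and mitosis was 0.24 (interval 0.02 to 0.47, limma adjusted p = 0.0717), short of the threshold. It passed with centred arrays (0.31, limma adjusted p = 0.0205), with the replicate number as a block (limma adjusted p = 0.0486) and under 2 other alternatives. Against mitosis, Elo68beta rose by 0.36 in post-meiosis (interval 0.14 to 0.59, limma adjusted p = 0.00639), which came to 0.24 without the third post-meiotic array and missed the threshold with cyclic loess (0.13, limma adjusted p = 0.274). Post-meiosis and meiosis differed by 0.12 (interval -0.10 to 0.35, limma adjusted p = 0.311; exact permutation p = 0.5), which became -0.0034 without that array and -0.024 with each array centred on its median.

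eloF, the elongase known for the long-chain hydrocarbons of the female cuticle, rose after meiosis. The values were 6.23, 6.35 and 6.19 on the mitotic arrays, 6.41, 6.29 and 6.47 on the meiotic arrays, and 6.69, 6.72 and 7.00 on the post-meiotic arrays. The meiotic and mitotic arrays overlapped, and all post-meiotic arrays lay above both. The mitotic signals lay below every array median and carry no detection call. eloF rose by 0.41 in post-meiosis relative to meiosis (interval 0.20 to 0.62, limma adjusted p = 0.00257) and by 0.55 relative to mitosis (interval 0.33 to 0.76, limma adjusted p = 2.3e-04). Its difference between meiosis and mitosis was 0.14 (interval -0.08 to 0.35, limma adjusted p = 0.282; exact permutation p = 0.2). The rise over meiosis was 0.19 with cyclic loess and then missed the threshold (limma adjusted p = 0.0844).

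sit, the gene next to bond, rose after meiosis as well. It read 5.80, 5.72 and 5.87 on the mitotic arrays, 5.88, 5.95 and 6.07 on the meiotic arrays, and 6.37, 6.11 and 6.60 on the post-meiotic arrays. The phases did not overlap, although the lowest post-meiotic array was only just above the highest meiotic one. sit rose by 0.39 in post-meiosis relative to meiosis (interval 0.14 to 0.64, limma adjusted p = 0.00906) and by 0.56 relative to mitosis (interval 0.31 to 0.81, limma adjusted p = 6.2e-04). Meiosis and mitosis differed by 0.17 (interval -0.08 to 0.42, limma adjusted p = 0.244). The rise over meiosis missed the threshold with each array centred on its median (0.25, limma adjusted p = 0.0858) and with cyclic loess (0.10, limma adjusted p = 0.494), and that over mitosis with cyclic loess (0.17, limma adjusted p = 0.224).

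Sheath muscle and fat body markers were, in the mean, also highest on the post-meiotic arrays, where sit, Elo68beta and eloF were high. Of 5 measured sheath muscle markers, 4 rose and 1 fell in post-meiosis relative to meiosis, and their mean was 8.84 to 9.19 on post-meiotic arrays against 6.37 to 6.47 on meiotic arrays. It was 6.83 to 7.25 on mitotic arrays. Of 5 measured fat body markers, 4 rose and 1 fell, with a mean of 9.07 to 9.36 on post-meiotic arrays against 8.19 to 8.34 on meiotic arrays. Tsf1, a transferrin, rose by 4.17 (limma adjusted p = 8.2e-11), while the median difference of the 5 markers was 0.34 and Lsp2 fell by 0.74. The bulb marker EbpIII rose by 3.41 (limma adjusted p = 6.8e-11). Cyst and hub cell markers (7 of 8 measured) averaged 6.99 to 7.12 in post-meiosis, against 6.63 to 6.65 in meiosis; 2 rose, 2 fell and 3 were not called, with hh alone at 2.85. Accessory gland markers (7 genes) averaged 4.87 to 4.96 in post-meiosis, against 5.26 to 5.51 in meiosis; 2 rose, 1 fell (Acp36DE, -3.72) and 4 were not called. The part of these tissues in the post-meiotic signal of sit, Elo68beta and eloF was not tested.

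In meiosis relative to mitosis, 2 of the 5 elongases rose (bond and Elo68alpha) and 3 were not called by limma. All 5 differences were above 0. Over all probe sets, 24.3% rose and 26.3% fell in this comparison. The median difference was 0.24 over the 5 elongases and 0.065 over all probe sets.

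In post-meiosis relative to meiosis, sit and eloF rose, bond and Elo68alpha fell, and Elo68beta was not called. Over all probe sets 37.8% rose and 27.8% fell. The median difference was 0.12 over the 5 elongases and 0.13 over all probe sets, so that the rises of 0.39 and 0.41 are measured on a scale whose centre itself stood above 0. Centring the arrays moved the median of all probe sets to -0.017 and left 1 rise (eloF) and 2 falls among the elongases, and cyclic loess left 0 rises and 2 falls.

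Against mitosis, 3 of the 5 rose in post-meiosis (sit, Elo68beta and eloF), bond fell and Elo68alpha was not called. Over all probe sets 49.6% rose and 29.5% fell, and the median difference of all probe sets was 0.21, against 0.36 for the 5 elongases. With cyclic loess only eloF rose and only bond fell. The 3 comparisons share their arrays and are not independent of each other.

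**Figure D2:**
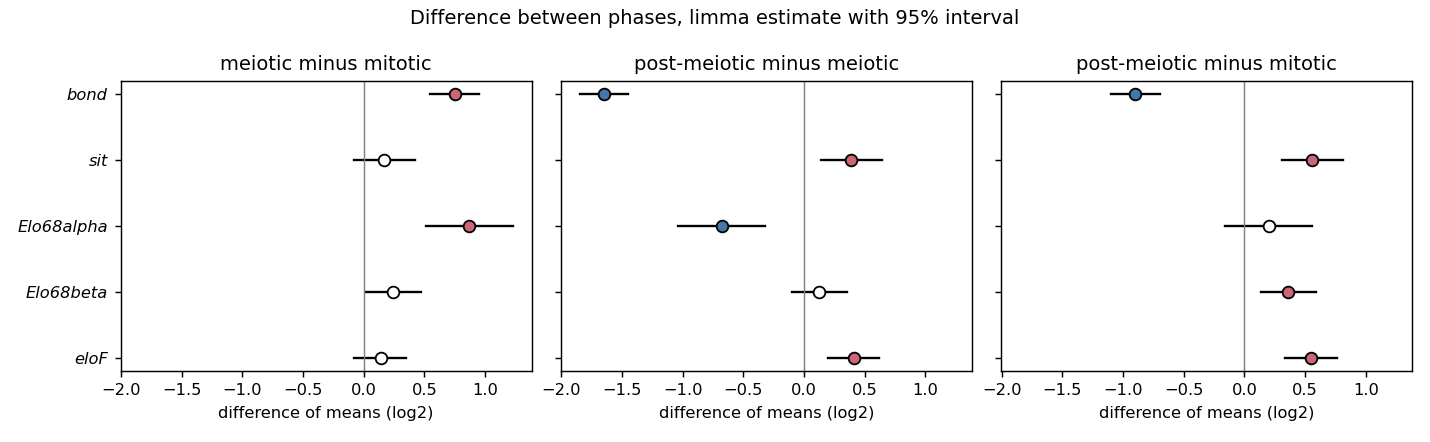
Difference of phase means in log2 intensity (horizontal axes) for the 5 elongases (rows) in the 3 comparisons (panels), with the 95% interval of limma; red points rose, blue points fell and white points were not called. bond is at 0.75, -1.65 and -0.90 from left to right, and eloF at 0.14, 0.41 and 0.55.

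The other genes of the elongase family were taken from a list of 14, of which 13 had a probe set of their own. In meiosis relative to mitosis 8 of 13 rose, 2 fell and 3 were not called. In post-meiosis relative to meiosis 7 rose, 3 fell and 3 were not called; 4 rose and 3 fell with centred arrays. Relative to mitosis, 8 rose and 3 fell in post-meiosis. Over all probe sets 24.3% rose and 26.3% fell in meiosis relative to mitosis, and 37.8% rose and 27.8% fell in post-meiosis relative to meiosis. Relative to mitosis, 49.6% rose and 29.5% fell in post-meiosis. The median differences over the 13 genes were 0.35, 0.36 and 0.62 in these comparisons, against 0.065, 0.13 and 0.21 over all probe sets. Individual functions of most of these genes are not known with certainty.

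Of the other family genes, 3 rose, like bond, in meiosis and fell after it. CG16904 had 9.53, 9.50 and 9.61 on the mitotic arrays, 10.34, 10.27 and 10.46 on the meiotic arrays, and only 5.91, 6.18 and 6.43 on the post-meiotic arrays. It fell by 4.18 in post-meiosis relative to meiosis (limma adjusted p = 7.9e-12), the steepest fitted difference of the 18 elongase genes measured. Its post-meiotic mean of 6.17 lay below every array median and carries no detection call, so no fold is given. CG33110 averaged 8.02 on mitotic, 9.54 on meiotic and 7.75 on post-meiotic arrays, rising by 1.52 and then falling by 1.79. Its post-meiotic level was below the mitotic one by -0.26, a difference that lost its call without the first mitotic array (-0.23) and turned to 0.52 with cyclic loess. CG18609 averaged 7.61 on mitotic, 8.54 on meiotic and 7.69 on post-meiotic arrays, rising by 0.93 and falling by 0.85.

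A further group of family genes rose in meiosis and showed no fall after it. CG31141 rose by 1.09 in meiosis relative to mitosis and by another 0.69 in post-meiosis relative to meiosis, with 12.34, 12.36 and 12.38 on the post-meiotic arrays against 10.62, 10.61 and 10.53 on the mitotic arrays. CG17821 rose by 1.18 in meiosis and differed by 0.083 between post-meiosis and meiosis, which was not called. With cyclic loess the latter difference was a called rise (0.49, limma adjusted p = 1.7e-04). CG8534 rose by 0.56 and then by 0.36, although the second rise missed the threshold with centred arrays and without the first meiotic (0.30) or the third post-meiotic array (0.24). Elovl7 rose by 0.35 in meiosis and by 1.47 after it, with 6.89, 7.20 and 6.95 on the post-meiotic arrays against 5.55, 5.59 and 5.47 on the meiotic arrays.

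CG31523 rose by 2.22 in post-meiosis relative to meiosis, with 9.88, 9.74 and 9.72 on the post-meiotic arrays against 7.11, 8.28 and 7.30 on the meiotic arrays. Its lower level in meiosis than in mitosis (-0.69) lost its call with cyclic loess and without the first or the third meiotic array (-0.46 and -0.56) or the second or the third mitotic array (-0.58 and -0.69). CG9458 fell by 0.90 in meiosis relative to mitosis, and its post-meiotic level stayed below the mitotic one by -0.67. Its meiotic and post-meiotic means (5.83 and 6.07) lay below every array median and carry no detection call. CG5326 and CG6660 rose after meiosis, by 0.61 and 0.40, from mitotic and meiotic signals below every array median. The rise of CG6660 missed the threshold under both other scalings. For CG5326 the 0.61 came from the brightest of 3 probe sets, while the others gave 0.21 (called) and 0.10 (not called). CG31522 rose by 0.24 in meiosis and 0.37 after it on its brightest probe set, but another of its 3 probe sets fell by 0.91 in meiosis, so its direction at that step is uncertain, and the rise after meiosis missed the threshold with centred arrays (0.23, limma adjusted p = 0.0541) and with cyclic loess (0.12, limma adjusted p = 0.302). CG9459 had no called difference.

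**Figure D3:**
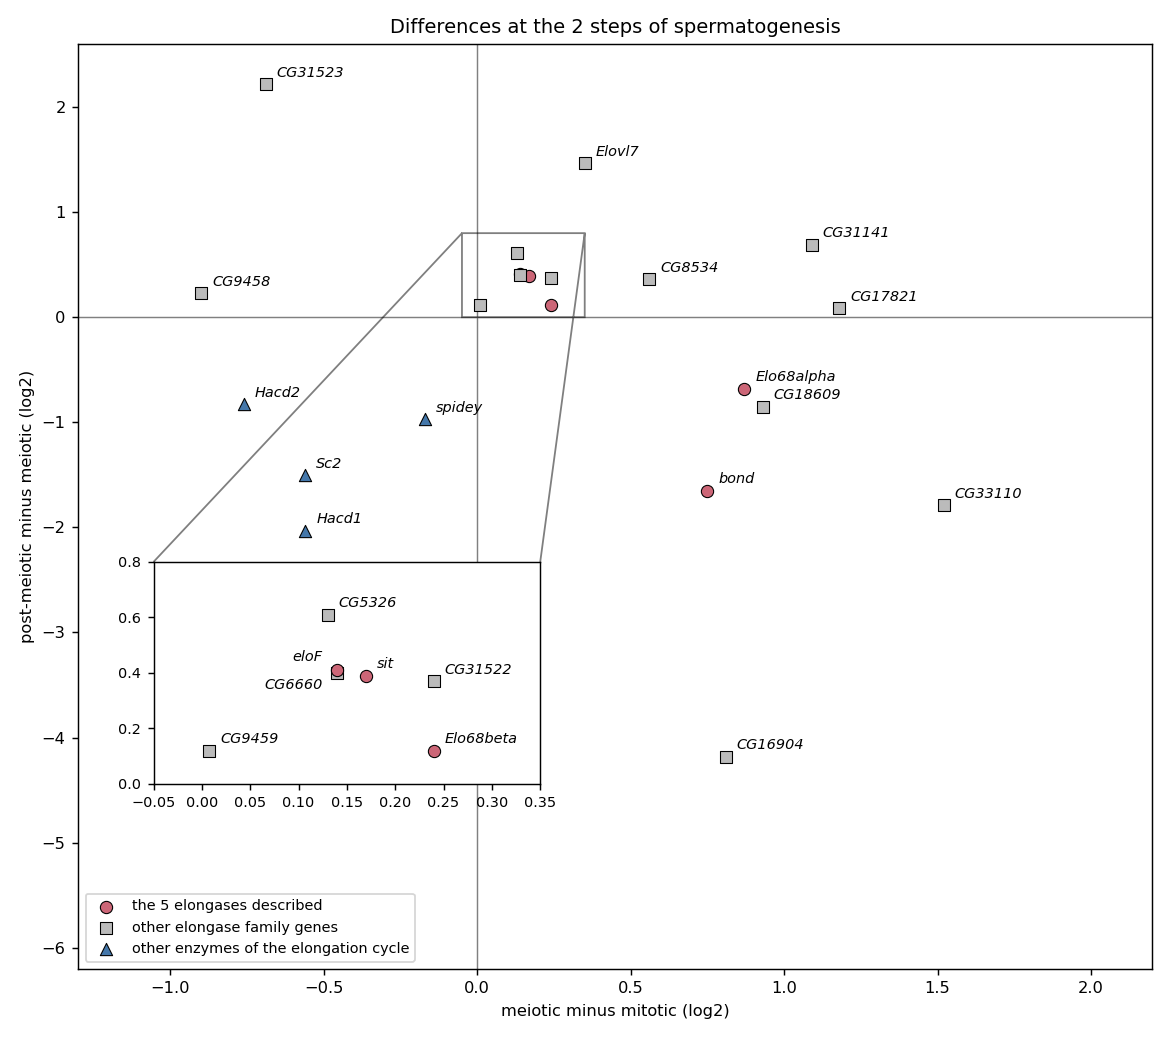
Difference between meiosis and mitosis (horizontal axis, log2) against that between post-meiosis and meiosis (vertical axis, log2) for the 5 elongases (red circles), the 13 other family genes (grey squares) and the 4 other enzymes of the elongation cycle (blue triangles); the inset enlarges the crowded area, and both axes share the meiotic arrays. bond, Elo68alpha, CG16904, CG18609 and CG33110 lie at the lower right, up in meiosis and down after it, whereas the 4 other cycle enzymes lie at the lower left.

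The elongase genes lie partly in clusters, and neighbours did not always share a profile. In the order of protein-coding genes of the RefSeq annotation of Release 6 plus ISO1 MT, bond, sit and CG33110 follow each other on chromosome arm 3R. CG5326 precedes bond with 1 gene, AdipoR, between them. bond and CG33110 peaked in meiosis, whereas sit, which lies between them, and CG5326 rose after it. The rise of sit over meiosis missed the threshold under both other scalings, and the size of that of CG5326 differed between its probe sets. eloF stands in a run of 5 adjacent elongase genes on 3R, in the order CG8534, eloF, CG16904, CG9459 and CG9458. In post-meiosis relative to meiosis eloF rose by 0.41 and CG16904, the next gene, fell by 4.18. On 3L, Elo68beta and Elo68alpha are adjacent, with post-meiotic differences from meiosis of 0.12 and -0.68. The differences between neighbours were not tested.

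**Figure D4:**
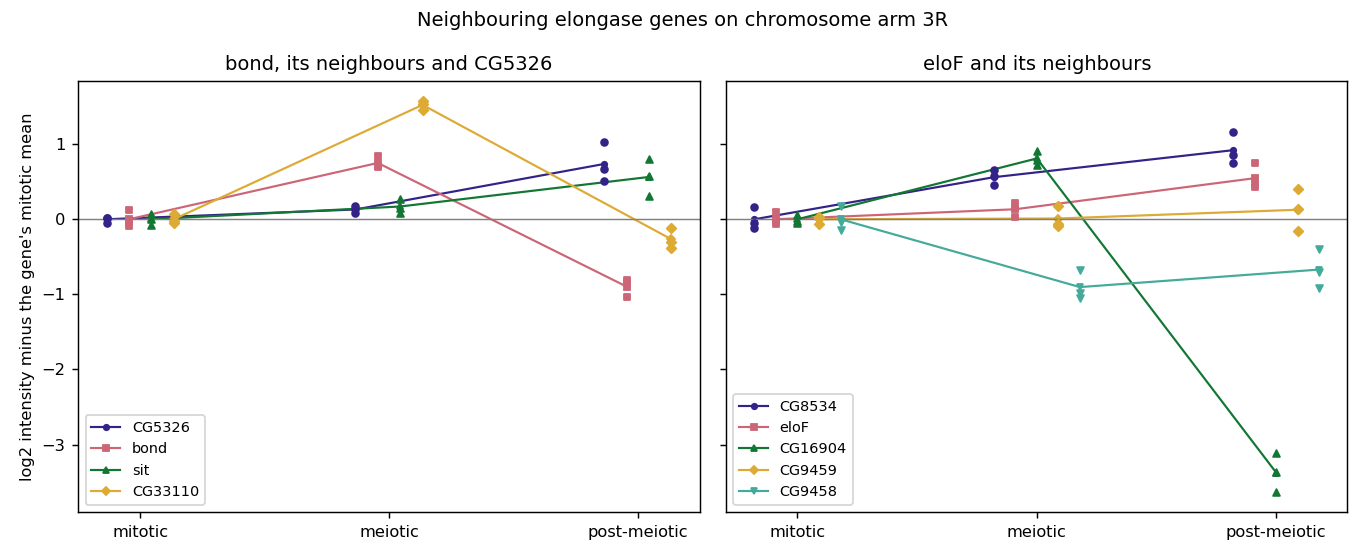
Log2 intensity relative to the gene's own mitotic mean (vertical axis) by phase (horizontal axis) for the genes around bond (left) and around eloF (right) on chromosome arm 3R; points are arrays and lines join the phase means. In the left panel sit is at 0.17 in meiosis, below bond and CG33110, and in the right panel CG16904 drops in post-meiosis while eloF and CG8534 rise.

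The enzymes that complete the elongation cycle fell as spermatogenesis went on. All 4 were highest in mitosis and lowest in post-meiosis. In meiosis relative to mitosis 0 rose, 3 fell and 1 was not called, and in both comparisons of post-meiosis all 4 fell, with median differences of -1.23 from meiosis and -1.83 from mitosis. The same counts were obtained with centred arrays and with cyclic loess. Of all probe sets 26.3% fell in meiosis relative to mitosis, 27.8% in post-meiosis relative to meiosis and 29.5% in post-meiosis relative to mitosis. All 4 spermatogonial markers likewise fell at both steps and all 6 spermatocyte markers after meiosis, and the part of these cells in the levels of the 4 enzymes was not tested.

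Hacd1, a dehydratase of the cycle, had 10.65, 10.57 and 10.62 on the mitotic arrays, 10.08, 10.05 and 10.02 on the meiotic arrays, and 8.02, 8.09 and 7.95 on the post-meiotic arrays. It fell by 0.56 in meiosis and by a further 2.03 in post-meiosis. Sc2, the enoyl-CoA reductase of the last step, had 12.18, 12.25 and 12.29 on the mitotic arrays, 11.62, 11.77 and 11.63 on the meiotic arrays, and 10.30, 10.21 and 10.02 on the post-meiotic arrays, and fell by 0.56 and then 1.50. The other dehydratase, Hacd2, fell by 0.76 and 0.83. spidey, the ketoacyl-CoA reductase that acts just after the elongase, differed by -0.17 between meiosis and mitosis (limma adjusted p = 0.15) and fell by 0.97 in post-meiosis relative to meiosis. At the first step bond and Elo68alpha thus rose while Hacd1, Hacd2 and Sc2 fell. At the second step bond and Elo68alpha fell with all 4 cycle enzymes, whereas sit and eloF rose.

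Genes that supply the substrates were divided. Of 12 genes of fatty acid synthesis and desaturation, 2 rose and 3 fell in meiosis relative to mitosis (5 rose and 3 fell with centred arrays). In post-meiosis relative to meiosis 4 rose and 4 fell (4 and 2 with cyclic loess). Over all probe sets 24.3% rose and 26.3% fell at the first step, and 37.8% rose and 27.8% fell at the second. ACC, the acetyl-CoA carboxylase that makes malonyl-CoA, moved as bond did, rising by 0.37 in meiosis and falling by 1.40 after it. FASN1, a fatty acid synthase, went the other way, with a fall of 1.25 in meiosis and a rise of 1.36 after it. FASN2 rose by 1.62 and FASN3 fell by 0.83 in post-meiosis relative to meiosis. The signals of FASN3 on all arrays, and of FASN2 in mitosis and meiosis, lay below every array median and carry no detection call. Of the 4 measured genes of acyl-CoA activation, 2 rose and 2 fell in meiosis relative to mitosis, and 3 rose and 1 fell after it (2 and 0 with cyclic loess). Acsl fell by 1.49 and pdgy by 1.04 in meiosis, and after it they rose by 2.87 and 2.11. The signals of Acsl in mitosis and meiosis, and of hll on all arrays, also lay below every array median. The gene bgm rose by 0.51 in meiosis and fell by 0.69 after it, a fall that missed the threshold with cyclic loess (-0.29). The gene hll rose by 0.38 in meiosis and 0.35 after it; the first rise missed the threshold without the first meiotic array (0.31), and the second under both other scalings and without the second meiotic (0.25) or the second post-meiotic array (0.26). Of the 5 sheath muscle markers 4 fell in meiosis relative to mitosis (median -1.02) and 4 rose after it (median 3.14), as FASN1, Acsl and pdgy did, and the part of muscle in these genes was not tested.

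Among the genes downstream of elongation, those of peroxisomes, where very long chains are degraded, were mostly lower after meiosis. Of 13 measured genes 2 rose and 6 fell in meiosis relative to mitosis. In post-meiosis relative to meiosis 4 rose and 9 fell (2 rose and 6 fell with cyclic loess). Over all probe sets 24.3% rose and 26.3% fell at the first step, and 37.8% rose and 27.8% fell at the second. Pex14, Pex10 and Pex13, parts of the peroxisomal import machinery, fell by 2.38, 2.07 and 1.90 in post-meiosis relative to meiosis, and Pex16 and Mfe2, an enzyme of peroxisomal oxidation, fell by 1.13 and 0.98 in meiosis relative to mitosis. Acox57D-d, an acyl-CoA oxidase gene, rose by 0.73 in post-meiosis.

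Ceramide and sphingolipid synthesis, which uses the very long chains, had its lowest levels in meiosis for several genes. Of 9 genes 1 rose and 6 fell in meiosis relative to mitosis (1 and 4 with cyclic loess). In post-meiosis relative to meiosis 4 rose and 3 fell (6 and 3 with cyclic loess). Over all probe sets 24.3% rose and 26.3% fell at the first step, and 37.8% rose and 27.8% fell at the second. Without probe sets of an _s_, _x_ or _a_ suffix, schlank, Spt-I and egh drop out. Then 3 of 6 genes fell in meiosis and 1 of 6 rose after it. schlank, the ceramide synthase, fell by 2.10 in meiosis and rose by 2.01 after it. Spt-I and lace, the subunits of serine palmitoyltransferase, fell by 1.50 and 1.15 in meiosis, and Spt-I rose by 1.94 after it. Of the 5 measured sheath muscle markers, 4 likewise fell in meiosis and 4 rose after it. The brightest probe set of sls moved the opposite way at both steps. Another of the 3 sls probe sets moved with the brightest. The remaining one averaged 6.33 on mitotic, 6.60 on meiotic and 7.42 on post-meiotic arrays. The part of muscle in schlank and Spt-I was not tested. Cpes, the ceramide phosphoethanolamine synthase, fell by 1.35 and ifc, the dihydroceramide desaturase, by 0.91 in post-meiosis relative to meiosis. Of the cuticular hydrocarbon genes measured, Cyp4g1 and FarO, neither was called at either step, and FarO rose by 0.40 in post-meiosis relative to mitosis.

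The genes whose profiles over the 9 arrays were most like each elongase were found by the root mean square distance after each probe set was centred on its own mean. For bond these were Snp, Camp and squ, at distances of 0.0904, 0.0958 and 0.0978 log2 units. squ, a piRNA pathway gene, averaged 10.74 on mitotic, 11.35 on meiotic and 9.88 on post-meiotic arrays. For Elo68alpha they were CG8248, svp and kni, at 0.146, 0.146 and 0.161. For sit they were SK, a calcium-activated potassium channel gene, Osi1 and CG13428, at 0.0595 to 0.0795. For eloF they were CG14495, CG12517 and CG32751, at 0.0411 to 0.051, and for Elo68beta stw, CG11843 and CG13300, at 0.0367 to 0.0483. A flat profile gives small distances, so the distances are not comparable between elongases, and the arrays of a phase share their dissection.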

How the data were processed

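Per the study's methods, total RNA of dissected testis regions was hybridized to Affymetrix Drosophila Genome 2.0 arrays, and the authors deposited log2 intensity values per probe set after RMA background correction and quantile normalization; the version of the software is not given in the sources used here. The table held 18952 probe sets, of which 183 Affymetrix controls were left out, leaving 18769. The platform annotation gave 1 symbol to 13646 probe sets, several to 402 and none to 4721. The brightest probe set of a gene was used, and the number of arrays limits the precision.

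The 9 arrays of 3 phases were fitted together in limma 3.58.1 (R 4.3.3), with lmFit and eBayes, after testing on simulated data, and p-values were adjusted by the Benjamini-Hochberg method over all probe sets (threshold 0.05, two-sided). Exact permutation tests of 3 arrays against 3 used scipy 1.17.1. Alternatives were array centring, cyclic loess, a minimum mean log2 intensity of 6, only the 2 phases compared, an intensity trend, replicate number as a block, the mean of all probe sets, only probe sets without an _s_, _x_ or _a_ suffix, and leaving out each array.

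Members, gene lists and markers were chosen with earlier results of these data known. From each list up to 3 rises and 3 falls per comparison could be named; all family and cycle genes are described. Gene order came from the start positions of the protein-coding genes in the RefSeq table. Coordinates had no other use.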

Additional observations from a re-analysis of the deposited data

How the results depend on the processing

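Of 186 differences of the 5 elongases recomputed under the alternatives, 173 kept their direction and their side of the threshold; all differences of bond and the called ones of Elo68alpha were among these. In meiosis relative to mitosis the difference of Elo68beta passed the threshold with centred arrays (0.31, limma adjusted p = 0.0205), with only the 2 phases in the fit (0.24, 0.0114), with an intensity trend (0.24, 0.0487) and with the replicate block (0.24, 0.0486). The replicate block changed no other call of the elongases; 1 of 9 same-numbered pairs of arrays deviated together with a correlation over 0.1, so the numbers were not taken as pairs. There the count of called elongases was 1 of 3 with the minimum intensity of 6 and 1 of 4 without shared probe sets, because genes drop out of the test.

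In post-meiosis relative to meiosis, centring gave sit 0.25 and Elo68beta -0.024, and cyclic loess gave sit 0.10, Elo68beta -0.036 and eloF 0.19, with 2 elongases called. Against mitosis, cyclic loess gave sit 0.17, Elo68beta 0.13 and Elo68alpha -0.20, again with 2 called. The cause of these shifts was not tested. Leaving out 1 array at a time gave Elo68beta -0.0034 to 0.19 in post-meiosis relative to meiosis, the lowest without post-meiotic replicate 3, and changed no other direction or call of the 5.

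Among the other family genes, cyclic loess turned CG9459 to -0.084, -0.085 and -0.17 in the 3 comparisons, CG9458 to -0.05 (post-meiosis relative to meiosis) and CG33110 to 0.52 (post-meiosis relative to mitosis). Centring turned CG9459 to -0.031 and CG17821 to -0.064 in post-meiosis relative to meiosis and CG18609 to -0.0076 relative to mitosis. Cyclic loess instead gave a called rise of CG17821 in post-meiosis relative to meiosis (0.49, limma adjusted p = 1.7e-04). With cyclic loess CG18609 was also called as a rise in post-meiosis relative to mitosis (0.73, limma adjusted p = 2.4e-05). The mean of all probe sets turned CG31522 to -0.21 in meiosis. Leaving out 1 array took CG9459 to between -0.074 and 0.057, -0.02 and 0.26, and -0.012 and 0.26 in the 3 comparisons, and CG18609 to between -0.0051 and 0.14 in post-meiosis relative to mitosis.

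Of 504 counts of called genes in the other lists, 474 stayed within 1.5 times the reported count. In the family, rises in post-meiosis relative to meiosis numbered 4 with centring, against 7, and falls in meiosis 1, against 2, with cyclic loess, without shared probe sets and without the first or the third meiotic or the second or the third mitotic array. Rises of synthesis genes in meiosis numbered 5 with centring, 4 with the replicate block and 1 without shared probe sets, against 2.

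RMA values carry no detection call, so low signals cannot be told from background here. Such signals include those of Elo68beta and of the brightest probe set of CG31522 on all arrays. Further examples are Elo68alpha in mitosis and post-meiosis, sit and Elovl7 in mitosis and meiosis, eloF in mitosis and CG16904 in post-meiosis. FASN3, hll and CG9459 belong here on all arrays, as does CG9458 in meiosis and post-meiosis. So do CG5326, CG6660, FASN2 and Acsl in mitosis and meiosis.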
